A study of Homo sapiens with 6 samples.

Results

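The mitochondrial ribosomal protein genes are the 77 rows of the authors' deposited table whose symbol reads MRPL or MRPS followed by a number and, in a few, a letter from A to C, out of 15794 human genes. Of these, 48 carry MRPL symbols, named for the large subunit, and 29 carry MRPS symbols, named for the small subunit. Counts by subunit below follow the symbol alone, which need not match the place of the protein in the ribosome. GENCODE 29 lists 78 coding genes under such symbols, and the one left over, MRPL58, stands in the table under its older symbol ICT1. The samples form 2 groups of 3 biological replicates of eHAP, an engineered fully haploid human line derived from HAP1 and so of chronic myeloid leukaemia origin: a group labelled TFDP1 knockout, transfected with guide RNAs against TFDP1, and a wild-type control group labelled as having no gene knocked out. Per the labels' protocols, cells of both groups expressed Cas9, received a guide plasmid (that of the control group is not named), were selected with puromycin between 24 and 72 h and were collected on day 5. No cloning step is described, and the share of cells that kept an intact TFDP1 is not given. Each sample mixed 500000 eHAP cells with 10000 S2 cells of Drosophila before polyadenylated RNA was purified.

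The table gives each gene 1 log2 fold change, 1 mean level in CPM (counts scaled to library size), a likelihood ratio, and the p-value and adjusted p of the authors' edgeR test. It holds the comparison alone: no value below carries an SD over replicates, library depth is unknown, and replicate variation enters only through the authors' p-values. The numerator of the fold changes is not stated. TFDP1, which encodes the DNA-binding partner of the E2F factors, had a log2 fold change of 1.17 in the authors' deposited table (adjusted p = 1.08e-283), and signs are read against it, so that a gene called positive had more transcript where TFDP1 had more. Insertions and deletions made by Cas9 need not lower a transcript, so TFDP1 does not settle which group that is. Each fold change is given with an approximate standard error (SE), obtained as its size over the root of the likelihood ratio. Of 10 blood markers 5 had a row, at 0.177 to 15.3 CPM, with KIT negative (-0.98) and ITGA2B positive (0.49), and PTPRC, SPI1, GATA1, HBB and CD3E had none. Of 7 mesenchymal markers 5 had a row, at 0.257 to 487 CPM, and 4 were called negative, among them SPARC with a log2 fold change of -3.47. Of 5 epithelial markers 3 had a row, at 0.515 to 40.0 CPM, and all 3 were negative, among them KRT8 with -2.94. All 4 neuronal markers had a row, at 1.13 to 171 CPM, with SYP positive (1.71) and TUBB3 negative (-1.13). The part of these shifts in the values of the mitoribosomal genes was not tested.

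Mitochondria carry their own ribosome, which translates the few mRNAs of mitochondrial DNA, all of them for subunits of the respiratory chain and ATP synthase. Its RNAs come from mitochondrial DNA, but all its proteins are encoded in the nucleus, made by cytosolic ribosomes and imported. Some have a bacterial counterpart, and others were added in the mitochondrial lineage. Nuclear respiratory factor NRF1, the ETS factor GABP and YY1 are known activators of nuclear genes for mitochondrial proteins.

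The mitoribosomal genes differed little between the groups. At an adjusted p under 0.05 in the authors' deposited table, 9 of the 77 were called positive and 21 negative, against 17.3% positive and 22.2% negative over all genes. These are 11.7% and 27.3% of the members, and the 39.0% called in all stands beside a background of 39.5%. The members are well expressed, and 74 reached the median gene's 23.5 CPM. Among genes from that level up 51.9% were called (25.4% positive, 26.5% negative), and among genes below it 27.2% (9.27% positive, 17.9% negative). The median log2 fold change of the members was -0.06, against -0.03 over all genes and -0.0027 over the genes at or above the median level. No member reached 1.5-fold, and 3 of 77 reached 1.25-fold. Among the genes at or above the median level 3.82% reached 1.5-fold and 17.7% reached 1.25-fold. The log2 fold changes of the members had an SD of 0.15 across genes, beside 0.27 across those well-expressed genes, while the median approximate SE was 0.059 and 0.062. For all 77 members the approximate 95% interval lay within 1.5-fold of no change, and for 60 within 1.25-fold.

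**Figure D1:**
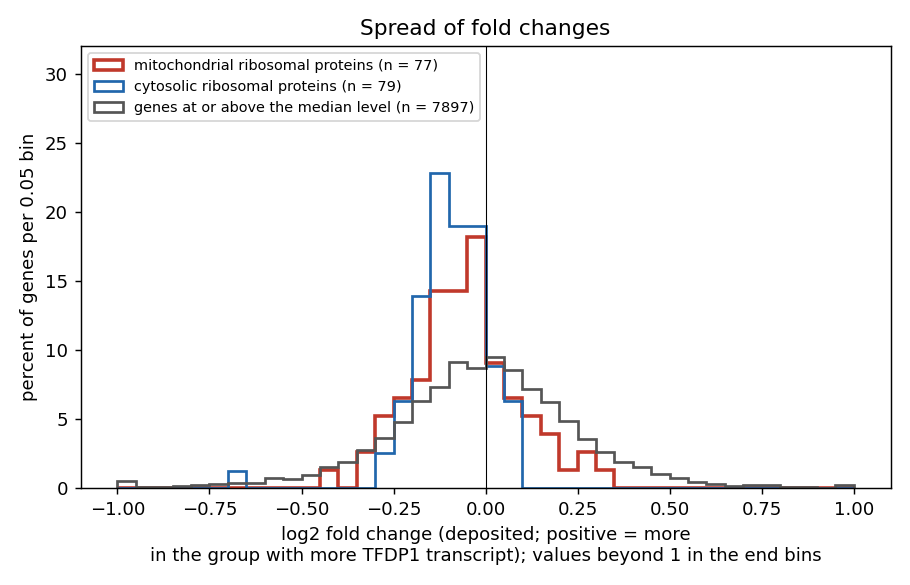
Percent of genes in bins of 0.05 of the deposited log2 fold change, for the 77 mitochondrial ribosomal protein genes, 79 cytosolic ribosomal protein genes and 7897 genes at or above the median level; values beyond 1 stand in the end bins. The members lie between -0.41 and 0.32, a narrower range than that of the well-expressed genes.

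How many members were called on each side depended on where 0 was set, which moves all genes alike and leaves the distance between the members' median and that of all genes as it was. Re-centred on the median of all genes, with the test recomputed, 11 members were called positive and 15 negative, beside 20.4% and 20.5% of all genes, and the members' median was -0.04. Re-centred on the median cytosolic ribosomal protein gene, which stood at -0.09, the split was 14 to 9, beside 27.6% and 15.6% of all genes, and the members' median was 0.03, beside 0.06 for all genes. With lowess trends on length and GC of the transcript taken out it was 13 to 13, beside 18.2% and 20.2% of 14777 genes, and the median was -0.0057, beside -0.0070. How the authors scaled the libraries, and whether the Drosophila reads were used for it, is not stated.

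**Figure D2:**
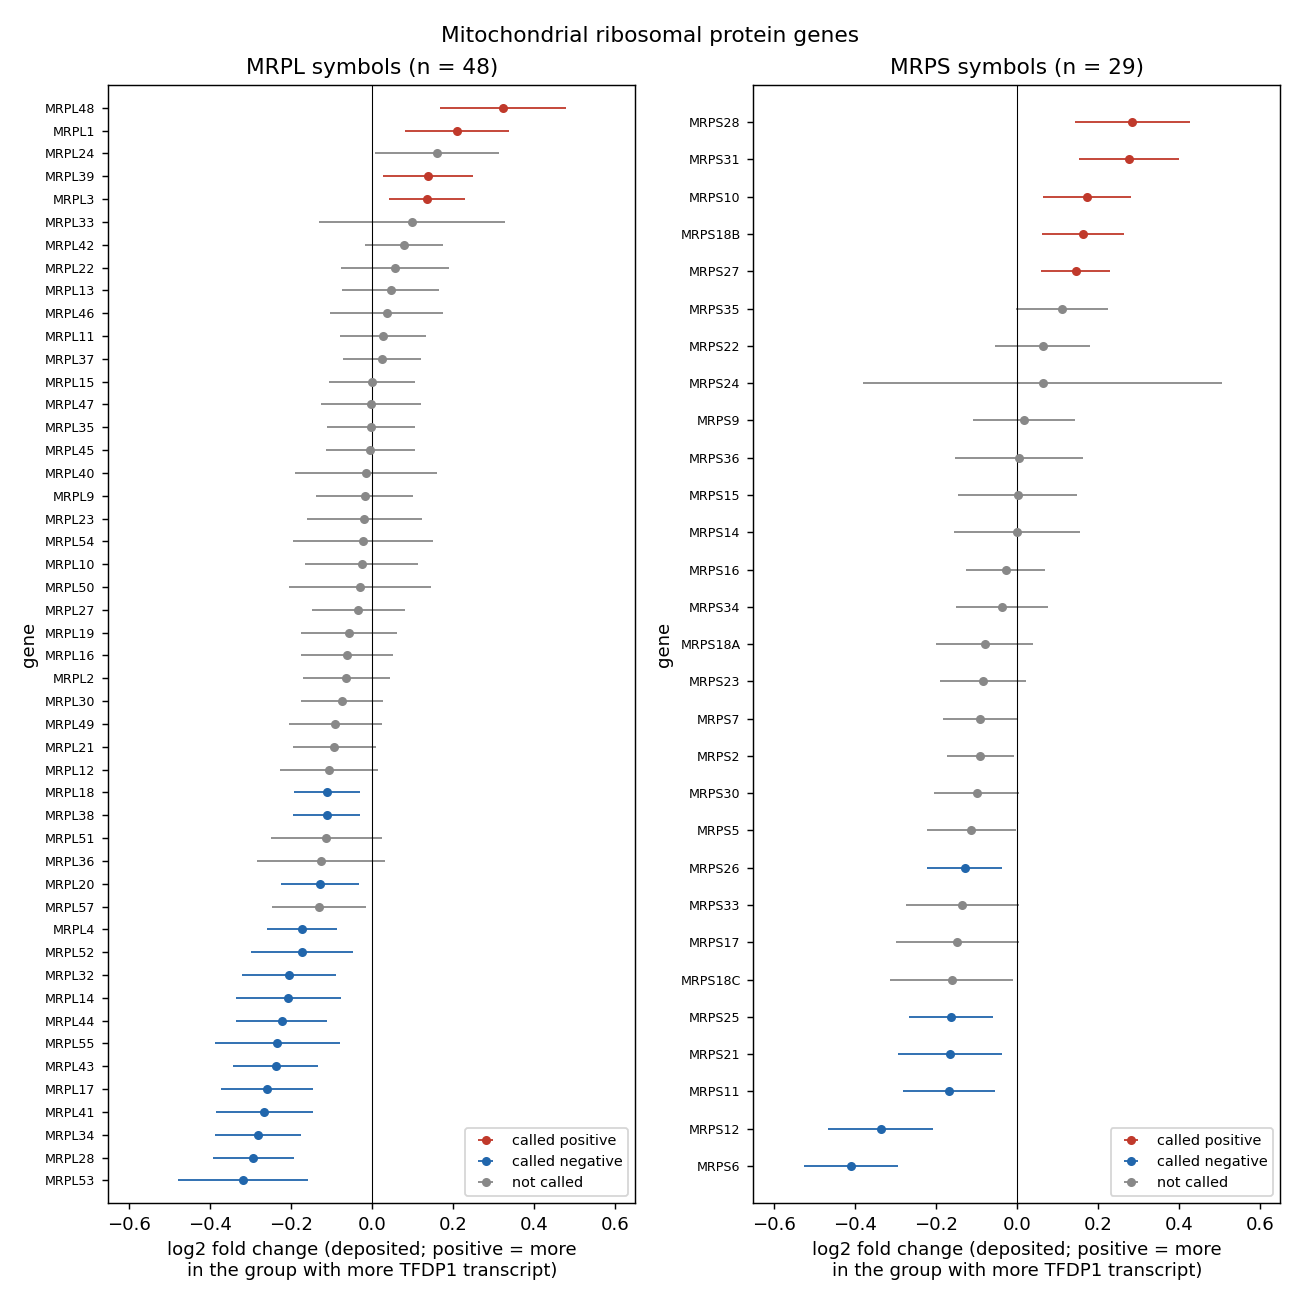
Deposited log2 fold change of each member (points) with an approximate 95% interval (lines), for the 48 MRPL genes on the left and the 29 MRPS genes on the right, ordered by fold change and coloured by the authors' call. In both panels most intervals include 0, and called genes stand at both ends.

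Among the 48 MRPL genes 4 were positive, 15 negative and 29 uncalled, and their median log2 fold change was -0.06. Among the 29 MRPS genes 5 were positive, 6 negative and 18 uncalled, and their median was -0.08. The difference between MRPL and MRPS genes was not tested. The 48 members with a bacterial counterpart held 5 positive and 13 negative genes (median -0.06), and 29 proteins specific to mitochondria, ICT1 counted with them, held 4 and 8 (median -0.06).

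The largest negative values were in genes of either subunit. MRPS6 (chromosome 21, 34073224 to 34143034, plus strand, coding, ENSG00000243927.5 in GENCODE 29 on GRCh38), the counterpart of bacterial ribosomal protein bS6, had a log2 fold change of -0.41 (approximate SE 0.059, 1.33-fold) at a level of 59.5 CPM, adjusted p = 1.04e-10 in the authors' deposited table. MRPS12 (chromosome 19, 38930548 to 38933162, plus strand), whose protein lies at the decoding site, stood at -0.34 (SE 0.066, 91.7 CPM, adjusted p = 3.18e-06). MRPL53 (chromosome 2, 74471958 to 74473322, minus strand), a protein without bacterial counterpart placed at the stalk that binds translation factors, stood at -0.32 (SE 0.081, 23.1 CPM, adjusted p = 5.21e-04). All of them lay beyond the scatter implied by the authors' test, yet none was changed by more than 1.33-fold. The bL28 counterpart MRPL28 was at -0.29 and the bL34 counterpart MRPL34 at -0.28 in the authors' deposited table, and their p-values were the smallest on the negative side after that of MRPS6. MRPL41 (-0.27), MRPL17 (-0.26) and MRPL43 (-0.24) complete the lowest 8, and MRPL17 encodes a protein near the exit of the peptide tunnel. With the length and GC trends removed MRPS6 (-0.47), MRPS12 (-0.17) and MRPL53 (-0.21) stayed negative, with recomputed adjusted p of 4.75e-14, 0.0343 and 0.0307, whereas MRPL28 (-0.11), MRPL41 (-0.01) and MRPL43 (-0.10) were no longer called.

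The largest positive values were smaller. MRPL48 (chromosome 11, 73787316 to 73865133, plus strand, ENSG00000175581.13), a mitochondria-specific protein of the central protuberance, had a log2 fold change of 0.32 (SE 0.079, 1.25-fold) at a level of 36.3 CPM, adjusted p = 2.56e-04 in the authors' deposited table. MRPS28 (chromosome 8, 79918717 to 80030289, minus strand), a small subunit protein, stood at 0.28 (SE 0.072, 36.2 CPM, adjusted p = 4.78e-04). MRPS31 (chromosome 13, 40729135 to 40771173, minus strand), specific to the mitochondrial small subunit, stood at 0.28 (SE 0.063, 44.4 CPM, adjusted p = 8.45e-05) and had the smallest p on the positive side. MRPL1, at the stalk beside the exit site for transfer RNA, was at 0.21, MRPS10 at 0.17, MRPS18B at 0.16, the pentatricopeptide protein gene MRPS27 at 0.14 and MRPL39 at 0.14, all in the authors' deposited table. The ninth called gene was MRPL3 at 0.14, whose bacterial counterpart reaches towards the peptidyl transferase centre. The positive calls of MRPL48, MRPS28 and MRPS31 held with the length and GC trends removed, at 0.36, 0.32 and 0.26, whereas MRPS27 lost its call, at 0.089 (adjusted p = 0.0942).

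The remaining 47 members were not called and ranged from -0.16 to 0.16, 33 of them below 0 and 14 above. Next to the threshold MRPL39 (adjusted p = 0.0429) lay inside and MRPL57 (-0.13, adjusted p = 0.0756) outside in the authors' deposited table. Of 5 genes for the stalk MRPL53 was called and the other 4 were not. MRPL12, whose protein contacts the elongation factors, was at -0.10, MRPL10 at -0.03, MRPL11 at 0.03 and MRPL54 at -0.02. Of 7 genes listed for the rim of the tunnel exit, MRPL39 was positive and MRPL44 negative (-0.22). MRPL17 (-0.26, called negative), named above as near the exit, is not on that list. MRPL45, which helps attach the ribosome to the inner membrane, was at -0.0035, MRPL47 at -0.0014, MRPL23 at -0.02 (0.19 and called positive with the trends removed), MRPL22 at 0.06 and MRPL24 at 0.16 (adjusted p = 0.103). MRPL24 was called positive on re-centring, at 0.19 on the median gene (adjusted p = 0.0444 in the recomputed test), as was MRPS35. The 3 human relatives of bacterial protein bS18 did not share a sign: MRPS18B was called positive, while MRPS18A (-0.08, adjusted p = 0.348) and MRPS18C (-0.16, adjusted p = 0.0959) were not called. With the trends removed MRPS18C was called negative (-0.21, adjusted p = 0.0228), and MRPS18A stood at 0.085 (adjusted p = 0.286). MRPS36, now known as a component of the α-ketoglutarate dehydrogenase complex and not of the ribosome, stood at 0.0049.

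**Figure D3:**
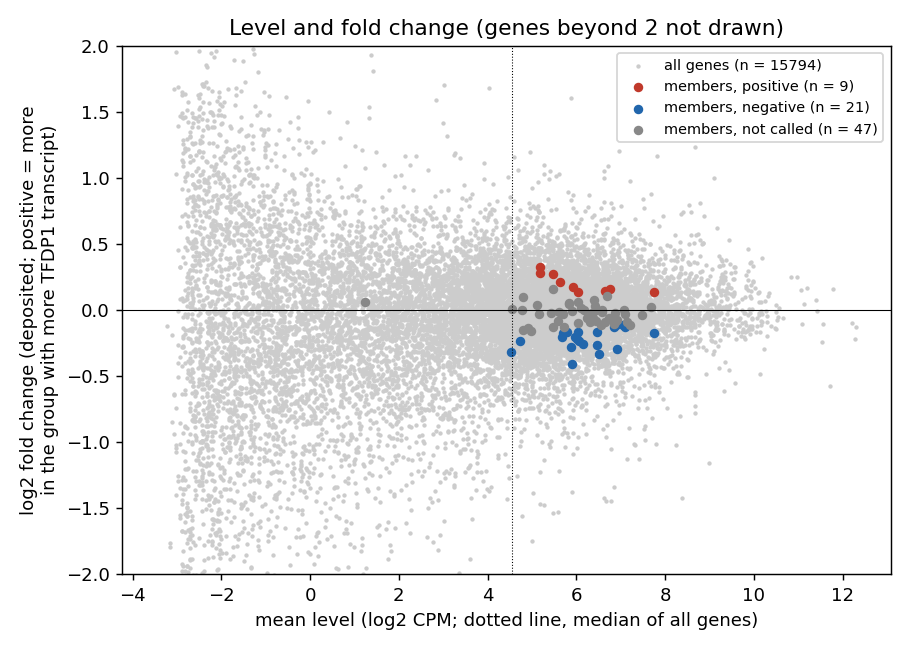
Mean level (log2 CPM) against deposited log2 fold change for all 15794 genes (grey; genes beyond 2 not drawn) and the 77 members, coloured by the authors' call. All but 3 members lie at or right of the dotted median level, and MRPS24 alone stands far to the left.

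Levels of the members ran from 2.34 to 217 CPM, with a median of 68.8 CPM. MRPL3 (217 CPM), MRPL4 (216 CPM) and MRPL37 (205 CPM) were highest in the authors' deposited table, and MRPS24 (2.34 CPM), MRPL53 (23.1 CPM) and MRPS36 (23.3 CPM) lowest. Divided by the length of the longest annotated transcript, MRPL3 had 127 CPM per kilobase, MRPL4 133, MRPL37 130 and MRPS24 1.36, beside a median of 38.9 over the members. MRPS24 shares exons with the read-through gene URGCP-MRPS24 on the same strand. Its low level left it with an approximate SE of 0.23, the largest of the members.

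Many members can share reads with other genes. In GENCODE 29, 41 of the 77 share exonic bases with another gene, on the same strand for 16 and on the opposite strand for 29, and 34 have at least 1 named pseudogene, 75 pseudogenes in all. Whether reads were counted by strand is not stated. The 19 members with neither gave 2 positive and 7 negative genes, beside 17.3% and 22.2% of all genes, and had a median of -0.09. Among the 5 coding genes with a row under their GENCODE 29 symbol that overlap a member on the same strand, 3 were called negative together with it. These pairs were singled out after their values were seen. SLC5A3, a myo-inositol transporter gene, stood at -0.41 beside MRPS6 at -0.41, CCDC142 at -0.37 beside MRPL53 at -0.32, and TMEM8A at -0.17 beside MRPL28 at -0.29. The values of MRPS6, MRPL53 and MRPL28 are therefore uncertain. The others of the 5 were ZNF514 (0.07) with MRPS5 (-0.11) and the histone chaperone gene DNAJC9 (0.46, called positive) with MRPS16 (-0.03). MRPS31 has 4 named pseudogenes, and one of them, MRPS31P5, has a row of its own at 0.12 (adjusted p = 0.562). MRPL48 has 1 named pseudogene, and MRPS28 shares exonic bases with the coding gene AC036214.3 on the same strand, which has no row under that symbol. The 58 members with an overlap or a pseudogene gave 7 positive and 14 negative genes (12.1% and 24.1%), so shared reads are possible for positive genes too.

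Members often lie head to head with another gene, a layout in which transcripts leave a common start region in opposite directions. By gene models, the start of 34 members lay within 1 kb of the start of a gene on the other strand. For 25 of these the partner was a coding gene outside the family with a row under its GENCODE symbol. A partner listed only under an older symbol is not counted. TWNK, beside MRPL43 (-0.24, called negative), had no row under its GENCODE symbol and is left out of the counts and correlations. Of those 25 partners 5 were called positive and 4 negative, while their mitoribosomal neighbours gave 2 and 6 (17.3% and 22.2% over all genes). All 5 positive partners, named after their values were seen, stood beside an uncalled member, as did most of the 25 partners. Whether calls of partners and members go together was not tested. The condensin subunit gene NCAPD2 had a log2 fold change of 0.72 (adjusted p = 1.45e-65), against -0.11 for MRPL51, and the models of these genes overlap by 485 bases at their starts. SKA3, a kinetochore gene, stood at 0.42 and MRPL57 at -0.13, with starts 43 bases apart. MITD1, which acts in the last step of cell division, stood at 0.42 and MRPL30 at -0.07, with starts 21 bases apart. MTBP, a factor for the firing of replication origins, stood at 0.45 and MRPL13 at 0.05, with models that overlap by 2 bases. LRRC46 stood at 1.07 and MRPL10 at -0.03, but the level of LRRC46 was only 0.945 CPM. Both genes were called in 2 pairs, MRPL14 (-0.21) with TMEM63B (-0.29) and MRPS18B (0.16) with PPP1R10 (-0.21), and in both the models overlap, by 543 and 903 bases. EME2, which encodes a partner of the nuclease MUS81, stood at -0.63 and MRPS34 at -0.04. Within the family, MRPS11 (-0.17, called negative) and MRPL46 (0.04, not called) start 34 bases apart. Over the 25 pairs the 2 fold changes had a Spearman correlation of -0.23 and a Pearson correlation of -0.17, given as a description, since the genes of all pairs come from the same libraries.

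**Figure D4:**
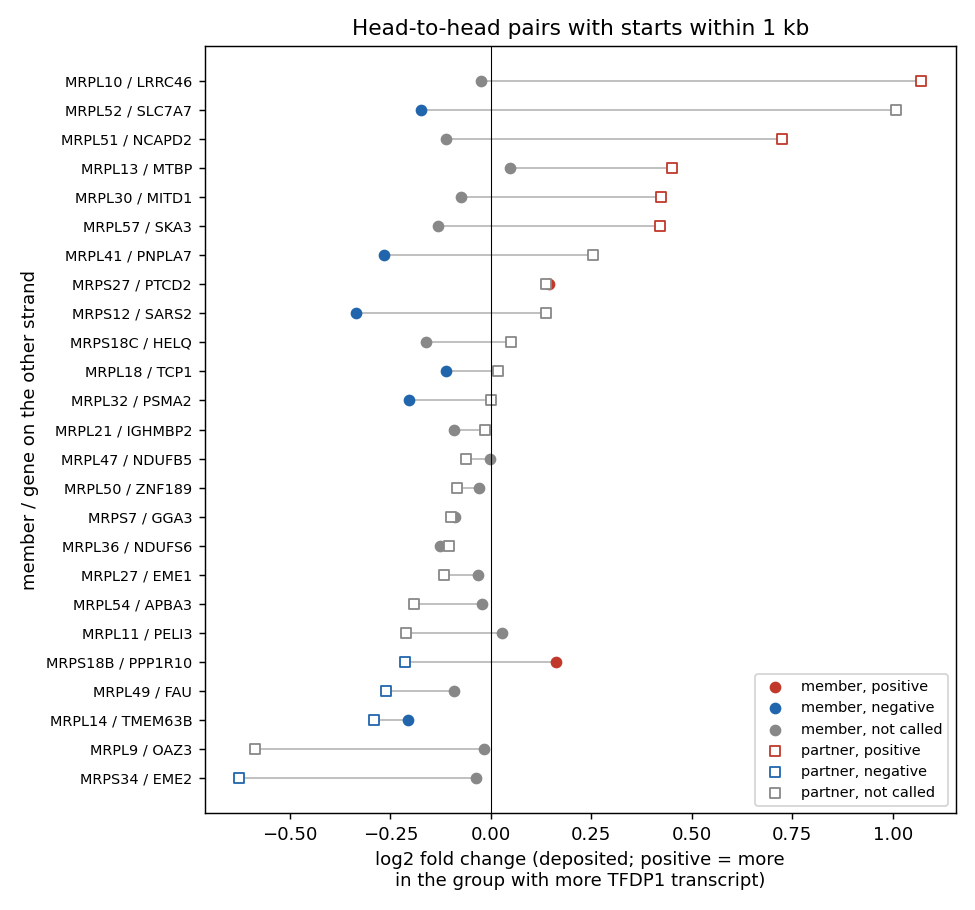
Deposited log2 fold change of the member (filled circles) and of the coding gene that starts within 1 kb on the other strand (open squares) in 25 pairs, ordered by the partner and coloured by the authors' call. Partners spread from -0.63 to 1.07, while their members stay between -0.34 and 0.16. Several outlying partners had low levels: LRRC46 (0.945 CPM, SE 0.36), SLC7A7 (0.407 CPM, SE 0.56), OAZ3 (1.21 CPM, SE 0.31) and EME2 (9.14 CPM, SE 0.12). NCAPD2 (0.72) was at 330 CPM (SE 0.042).

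Promoters were read from RefSeq's table on GRCh38.p14 (250 bases before to 50 after the start), which holds 68 of the 77 members and 11251 of the genes in the authors' deposited table. Each motif was searched by exact letters on both strands. The E2F letters TTTCCCGC, TTTGGCGC, TTTCGCGC or TTTGCCGC occurred in 5 of the 68 members (7.35%) and in 6.40% of the 11251 genes. Among all genes with these letters 31.1% were called positive, beside 18.1% of those without. Of the 5 members 0 were called positive, and 5 genes are too few to compare with these shares. The 5 members whose own windows hold E2F letters are shown here. Those letters stand in capitals in a stretch of 30 bases read 5′ to 3′ on the strand of the gene.
MRPL18 (chr6:159789765-159789794, plus strand): cgatgggaaggGCGCGAAAgcggagaacgg
MRPL37 (chr1:54200143-54200172, plus strand): ccaaaacgagcTTTGGCGCccggtctcatt
MRPL42 (chr12:93467426-93467455, plus strand): acccgggccgcTTTCCCGCggagactacat
MRPL46 (chr15:88467420-88467449, minus strand): ctttcccctagTTTGCCGCtcccgcggctg
MRPS7 (chr17:75261729-75261758, plus strand): aagggtttcctTTTGGCGCtcccctttgga
MRPL37, MRPL42, MRPL46 and MRPS7 were not called in the authors' deposited table, with log2 fold changes of 0.03, 0.08, 0.04 and -0.09, and MRPL18 was called negative at -0.11. The letters printed began between 13 and 139 bases before the RefSeq start. The stretch of MRPL46 lies between the gene models of MRPL46, which ends at 88467419, and MRPS11, which begins at 88467453 on the other strand. MRPS11 (-0.17, called negative) had no E2F letters in its own RefSeq window and is not counted among the 5. A match describes the letters only and does not show that a factor binds there.

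Letters for ETS factors and YY1 were more frequent among the members than across the table, a description without a test. The ETS letters CCGGAAG occurred in 29 of 68 members (42.6%), beside 20.2% of the 11251 genes, and the YY1 letters AAGATGGC in 21 members (30.9%), beside 5.91%. Of the 24 occurrences of the YY1 letters in windows of the members, 16 began after the start. The NRF1 letters GCATGCGC, which also lie within the longer palindrome searched for NRF1, occurred in 6 members (8.82%), beside 5.89%. The letters CACGTG, bound by MYC, occurred in 9 members (13.2%, beside 12.3%), the SP1 letters GGGCGG in 41 (60.3%, beside 75.5%) and the NFY letters CCAAT in 23 (33.8%, beside 42.5%). The median log2 fold change was -0.08 in members with the YY1 letters and -0.08 in those without, and it was -0.08 with and -0.09 without the ETS letters. Members with ETS letters gave 4 positive and 10 negative genes, and those with YY1 letters 3 and 5. Members with NRF1 letters had a median of -0.17 and gave 1 positive and 3 negative genes of 6, beside -0.08 in the others, whereas across the table genes with these letters had a median of 0.01, beside -0.02 without. Members with SP1 letters gave 5 positive and 16 negative genes (median -0.09, beside -0.03 without), and across the table the medians were -0.02 with and without. Members with NFY letters gave 1 positive and 9 negative genes (median -0.11, beside -0.06 without). Across the table the medians were -0.0054 with and -0.03 without. Among the 11251 genes, those with NRF1 letters were called positive in 23.2%, beside 18.6% of those without. For SP1 letters these shares were 20.0% and 15.6%, and for NFY letters 20.9% and 17.4%. They were 19.5% and 18.8% for ETS letters, and 21.4% and 18.8% for YY1 letters. Negative shares of these genes, and calls of members without the letters, are not given here. Whether negative calls of members go with any of these letters was not tested.

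The 250 bases before the start are shown for the 2 lowest and the 2 highest members that have 1 RefSeq start and hold no exon of another coding gene there. Capitals mark every letter of the motifs above found on either strand.
MRPL41 (chr9:137551629-137551878, plus strand): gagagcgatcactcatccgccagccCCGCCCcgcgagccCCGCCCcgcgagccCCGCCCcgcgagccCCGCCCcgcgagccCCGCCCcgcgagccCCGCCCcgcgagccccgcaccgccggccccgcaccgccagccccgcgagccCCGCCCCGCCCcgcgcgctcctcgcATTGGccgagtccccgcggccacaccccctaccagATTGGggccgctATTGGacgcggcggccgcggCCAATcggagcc
MRPL17 (chr11:6683341-6683590, minus strand): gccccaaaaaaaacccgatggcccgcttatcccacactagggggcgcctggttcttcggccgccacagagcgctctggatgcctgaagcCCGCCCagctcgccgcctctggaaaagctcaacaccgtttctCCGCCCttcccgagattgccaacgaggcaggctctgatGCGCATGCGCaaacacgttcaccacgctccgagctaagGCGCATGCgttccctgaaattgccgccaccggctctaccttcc
MRPL48 (chr11:73787624-73787873, plus strand): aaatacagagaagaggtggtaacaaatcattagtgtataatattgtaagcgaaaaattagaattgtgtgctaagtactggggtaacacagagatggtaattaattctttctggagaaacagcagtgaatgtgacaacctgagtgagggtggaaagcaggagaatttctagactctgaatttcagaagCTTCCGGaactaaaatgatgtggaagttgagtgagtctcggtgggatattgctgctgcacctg
MRPS31 (chr13:40771191-40771440, minus strand): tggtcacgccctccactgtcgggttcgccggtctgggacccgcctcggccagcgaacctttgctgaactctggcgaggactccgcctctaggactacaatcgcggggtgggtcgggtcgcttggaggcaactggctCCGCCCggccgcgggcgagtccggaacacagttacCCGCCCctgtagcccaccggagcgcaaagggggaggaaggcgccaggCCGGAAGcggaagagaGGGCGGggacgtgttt
All but that of MRPL48 hold the SP1 letters, mostly read as CCGCCC on the strand shown, with 8 copies in MRPL41, 2 in MRPL17 and 3 in MRPS31. The promoter of MRPL41 also holds 4 copies of the NFY letters, and that of MRPL17 holds the longer NRF1 form 81 bases before the start and the short form again at 43 bases. Those of MRPL48 and MRPS31 hold the ETS letters 63 and 32 bases before the start. Both genes were called positive, but of all 29 members with ETS letters 4 were positive and 10 negative. None of the 4 holds the E2F letters, which says nothing about binding of E2F.

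Members called negative had more GC-rich transcripts than members called positive. Across the 77 members the Spearman correlation of log2 fold change with the GC content of the longest transcript was -0.42, beside -0.27 across the 14777 genes with an annotated transcript, given as descriptions because all genes come from the same 6 libraries. The 9 positive members had a GC content of 39.1% to 51.2% (median 42.4%), the 21 negative members of 37.5% to 71.9% (median 54.8%) and the 47 uncalled members a median of 47.2%. MRPL41 has the richest transcript, at 71.9%. With the length and GC trends of all genes removed, the correlation over the members was 0.27. With transcript length the Spearman correlation over the members was -0.03. Whether GC content has a part in the calls was not tested.

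**Figure D5:**
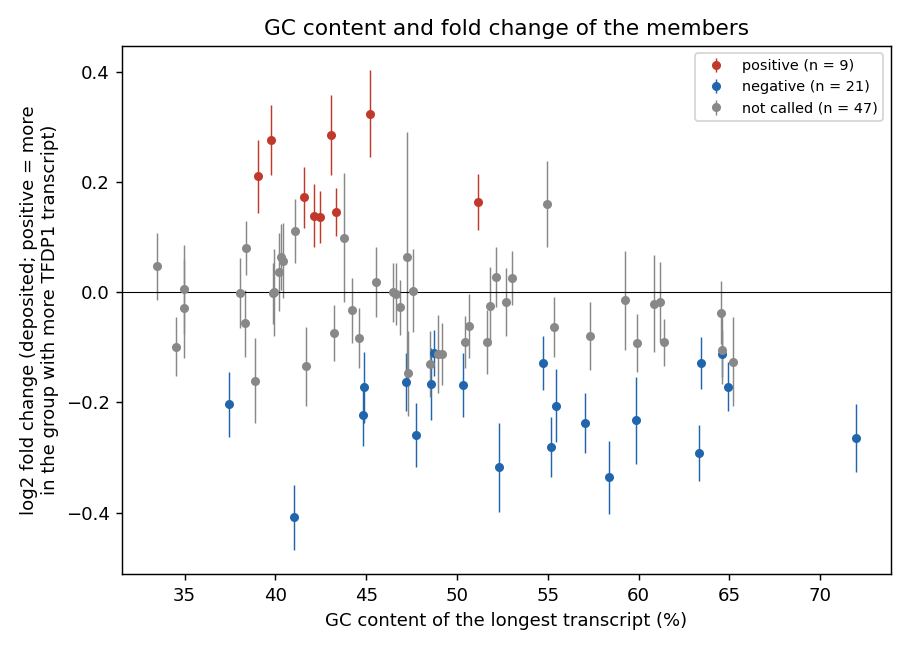
GC content of the longest annotated transcript (%) against deposited log2 fold change for the 77 members; lines give 1 approximate SE on each side and colours the authors' call. Positive members lie between 39.1% and 51.2% GC, and negative members reach 71.9%.

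Other lists of mitochondrial gene expression held larger fold changes in places. Of 17 translation factors, at 10.9 to 435 CPM, 29.4% reached 1.25-fold, beside 3.90% of the members. The share was 34.5% over all genes and 17.7% over genes at or above the median level. These differences were not tested. For the counts below, 17.3% of all genes were called positive and 22.2% negative as deposited. With the cytosolic ribosomal protein genes as centre these shares were 27.6% and 15.6%. Of 6 mitoribosomal proteins under other symbols, 4 were negative in the authors' deposited table and 0 positive (median -0.20). The small subunit genes PTCD3 (-0.22), AURKAIP1 (-0.23) and DAP3 (-0.18) were called, as was GADD45GIP1 (-0.21) of the large subunit, while ICT1 (-0.06) and CHCHD1 (-0.03) were not. Under each other centre and with the trends removed the median stayed below 0, from -0.17 to -0.03, with 2 or 3 called negative. Of 27 genes for ribosome assembly and mitochondrial RNA processing 0 were positive and 5 negative (median -0.08), but 4 and 3 with the cytosolic ribosomal protein genes as centre (median 0.013). RPUSD3, a pseudouridine synthase family member, stood at -0.53, the assembly factors WBSCR16 and MPV17L2 at -0.22 and -0.29. The translation factors gave 4 positive and 5 negative genes (median -0.02, or 0.064 with the cytosolic genes as centre and -0.08 with the trends removed): the recycling factor GFM2 stood at -0.37, the release factor relative C12orf65 at 0.45 and SLIRP, which stabilises mitochondrial mRNAs, at -0.38. Of 18 genes for the copying and expression of mitochondrial DNA 2 were positive and 7 negative (median -0.08), but 6 and 3 with the cytosolic genes as centre. TFAM, which packages mitochondrial DNA, stood at 0.26, HSD17B10, a subunit of the mitochondrial RNase P, at -0.30 and the polymerase POLRMT at -0.20.

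Regulators of nuclear genes for mitochondria lay mostly on the other side. Of 10 with a row, 7 were positive and 1 negative in the authors' deposited table (median 0.22), and PPARGC1A, also listed, had no row. Over all genes 17.3% were positive and 22.2% negative as deposited, and 18.2% and 20.2% with the trends removed. The median stayed above 0 under each other setting, from 0.15 to 0.31, with 6 or 7 called positive. SP1 stood at 0.51, the GABP subunit GABPB1 at 0.46 and NRF1 at 0.44. The nuclear receptor gene ESRRA was negative at -0.35. YY1 (0.19) and the DNA-binding GABP subunit GABPA (0.29), named for the motifs above, were positive too. The 79 cytosolic ribosomal protein genes gave 0 positive and 26 negative genes (median -0.09), but 12 positive and 15 negative with the trends removed (median -0.03). Among those called negative were RPS10 (-0.65, uncertain because a read-through gene overlaps it) and RPS27A (-0.23). Thus 9 of 77 members and 0 of 79 cytosolic genes were called positive as deposited, and 13 and 12 with the trends removed, a difference that was not tested.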

How the data were processed

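Poly(A) RNA libraries of 6 samples (3 TFDP1 knockout, 3 control) were compared by the authors, whose single table was the only file used. Trimmomatic, HISAT2, featureCounts and edgeR, with builds hg38 and dm6, are listed in the submitters' processing notes; versions, strand setting and library scaling are not stated there. The deposited log2 columns hold the fold change and the mean level in log2 CPM, per the file headers. The authors deposited the likelihood ratio as a score with 1 degree of freedom, and the deposited p-value and its adjusted form come from the authors' edgeR test. Calls use the authors' adjusted p under 0.05, which by the ranks of the p-values was adjusted over about 18570 rows, more than the 15794 used here. Library depths are unknown.

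From these, approximate standard errors were computed, and the test was recomputed for the alternatives as a two-sided normal test with Benjamini-Hochberg adjustment over all rows. Re-centring subtracted a median log2 fold change; lowess trends (span 0.3, statsmodels 0.14.6) were removed on log2 transcript length, then GC content. GENCODE 29 (GRCh38, the files' build) gave positions, overlaps, pseudogenes and the longest transcript, matched by symbol for 14777 genes. Starts of the head-to-head pairs are the 5′ ends of these gene models, whereas promoters use RefSeq starts, which can differ. The printed promoter stretches of MRPL37, MRPL41, MRPL48 and MRPS7 lie inside their gene models. The model of MRPL37 begins at 54184041 and its E2F stretch at 54200143. Intervals span 1.96 standard errors on each side (95%). Named members were the 8 largest changes per direction among called members, the 3 smallest p per direction, the 3 highest and lowest levels, those next to the threshold, the MRPS18 relatives, MRPS36, MRPS12 and the stalk and tunnel lists, and in other lists the 3 called genes with the smallest p; further names, among them neighbours, overlapping genes and the members of the motif and GC results, were chosen after their values were seen. One gene that this rule names is not reported here. The members and lists were chosen with earlier results of these data known. Python 3.11.15, pandas 2.3.3, numpy 2.4.6, scipy 1.17.1 and matplotlib 3.10.9 were used.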

Additional observations from a re-analysis of the deposited data

How the results depend on the processing

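Under an adjusted p of 0.01, 7 members were positive and 13 negative, beside 13.1% and 17.4% of all genes. By symbol, 2 genes of the large subunit were positive and 3 of the small negative. Re-centred on the median cytosolic ribosomal protein gene, 14 were positive and 9 negative with a median of 0.028 (27.6% and 15.6% of all genes, median 0.064); the large subunit gave 7 and 7 and the small subunit 2 negative. With length and GC trends removed 13 were positive and 13 negative, beside 18.2% and 20.2% of 14777 genes. The large subunit gave 7 positive and 5 negative. MRPL4 went to 0.040 (not called) and MRPL23 to 0.19 (called positive). Of the 30 members called as deposited, 18 kept their call under that re-centring and 17 with the trends removed, and none took the opposite call. Among the 19 members without pseudogene or overlap 2 were positive and 7 negative, beside 17.3% and 22.2% of all genes. The large subunit gave 2 and 6 there and the small 0 and 1, and fewer genes enter. The other changes of setting kept the counts over all members within 1.5 times. With the median gene as centre they were 11 and 15 (20.4% and 20.5% of all genes). Adjustment over the deposited rows gave 9 and 21 (17.8% and 22.8%), and a change of at least 1.1-fold 8 and 17 (16.4% and 21.4%). Members at or above the median level gave 9 and 20 (25.4% and 26.5% of genes at that level). The wider definition of the mitoribosome gave 9 and 25 of 82 (17.3% and 22.2% of all genes). The cause of these shifts was not tested. No paired analysis was possible because the table holds no values per sample, and leaving out each replicate was not run for the same reason. Library depth is unknown.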
